A study of Homo sapiens with 4 samples.

Results

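The genes described here encode the hnRNP, PTBP and SR splicing proteins and a few RNA-binding proteins that act beside them, 47 genes in all, named by symbol. They were measured in BT474, an established line of human breast cancer cells in which ERBB2 is amplified. One group of cells had been kept for 24 h with 0.5 mM AICAR, and the other for 24 h with vehicle; both were grown in DMEM, and each group had 2 Affymetrix U133 Plus 2.0 arrays. AICAR is a nucleoside analog that cells phosphorylate to ZMP, an AMP mimic that activates the energy-sensing kinase AMPK. An array measures a gene through one or more probe sets, and the members were found as all probe sets annotated to exactly 1 of the 47 symbols. This gave 179 of 54675 probe sets and 44 of 19775 genes; the symbols HNRNPH2, SRSF2 and SRSF9 stood only on probe sets shared with other symbols and were not analysed here. Of the 44 genes, 43 were bright enough to test, among 13842 genes tested, and SRSF12 was too dim.

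Heterogeneous nuclear ribonucleoproteins (hnRNPs) bind newly made RNA in the nucleus and influence which exons are spliced in, how RNA is exported and how long it lasts. The polypyrimidine tract binding proteins (PTBP), counted among the hnRNPs, commonly repress exons by binding pyrimidine-rich stretches. SR proteins carry arginine- and serine-rich tails, bind exonic enhancers, commonly promote exon inclusion, and are phosphorylated by the SRPK and CLK kinases. Members of these families often compete on one transcript, and many regulate their own mRNA by including an exon that sends it to nonsense-mediated decay. Several are abundant in breast cancer cells, and SRSF1 can act as an oncoprotein there.

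The arrays were alike as a whole, with medians over all probe sets of 6.40 and 6.38 (log2) with AICAR and 6.37 and 6.38 with vehicle, and the 2 arrays of each group correlated at r = 0.997 over probe sets. Markers of a luminal breast cancer cell were present, with 8 of 8 above the bound for dim genes and mean levels of 10.6 to 14.2 (log2). One of them passed the test: ESR1, the estrogen receptor, was at 10.41 and 10.38 with AICAR and 10.74 and 10.67 with vehicle (adjusted p = 0.0411). Of 8 markers of blood, endothelial and stromal cells, 5 lay above that bound, at means between 4.59 and 7.23 over all 8, and none passed the test. The labels do not say whether the 2 arrays of a group are separate cultures. Each p-value below therefore reflects the spread among these 4 arrays alone, and that spread may be technical. The test also moderates the spread of each gene toward a value shared over all genes. A standard error (SE) therefore does not measure the replicates of that gene alone.

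Most of these genes were lower with AICAR than with vehicle. The difference, AICAR minus vehicle, was negative for 35 of 43 tested members and positive for 8, against a negative difference for 47.6% of all genes tested. Its median was -0.26 (log2), with quartiles of -0.41 and -0.11, and the median over all genes was 0.01. In limma's moderated test, with Benjamini-Hochberg adjustment over all 13842 genes and a threshold of 0.05, 17 members (39.5%) fell and 1 (2.33%) rose; of all genes, 5.19% fell and 4.63% rose, 9.82% in all. Both AICAR arrays lay below both vehicle arrays for 33 members, an arrangement seen for 28% of all genes, and above them for 6 members, as for 28.5% of all genes. Of the members that fell, 5 were at least 1.5-fold lower, a size that 0.867% of all genes reached with a call. SYNCRIP and PTBP2 were more than 2-fold lower. Without both genes, a choice made after their values were seen, 15 of 41 members (36.6%) fell and the median was -0.21. With all members and a dim filter at the 50th percentile, which leaves brighter genes, 51.2% of members and 10% of all genes fell.

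**Figure D1:**
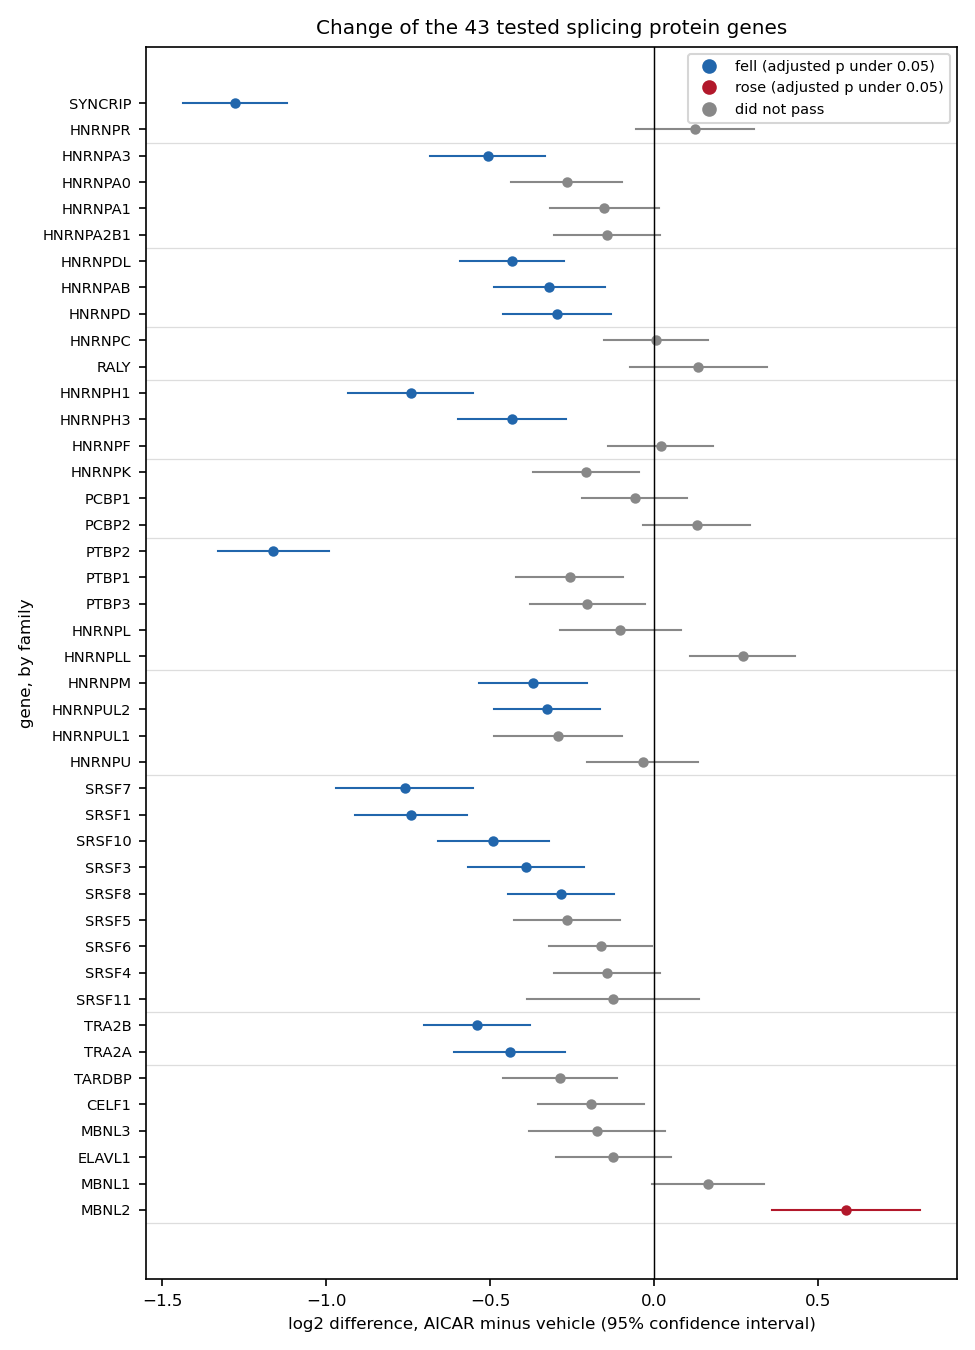
Log2 difference, AICAR minus vehicle, of the 43 tested members (points, with 95% confidence intervals from the fit over all genes; horizontal axis), grouped by family down the page. The 17 genes in blue lie left of 0 and SYNCRIP (-1.28) and PTBP2 (-1.16) lie farthest left; MBNL2 (0.59, red) lies farthest right.

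These counts changed when single arrays were left out, over all genes as well as members. The median of the members was -0.24 without vehicle replicate 1 and -0.23 without vehicle replicate 2. A fit with fewer arrays also has less power, and that loss was not separated from the weight of an array. Leaving out vehicle replicate 1, 4 members (9.3%) still passed as lower, against 0.217% of all genes, and leaving out vehicle replicate 2, 3 members (6.98%) did, against 0.368%. SYNCRIP, PTBP2 and SRSF1 passed in both cases and HNRNPH1 in the first. The other 14 called members had adjusted p-values from 0.0625 to 0.272 without vehicle replicate 1, and all 15 apart from those 3 had 0.0554 to 0.172 without vehicle replicate 2. Without AICAR replicate 1, HNRNPAB, HNRNPD, HNRNPUL2 and SRSF8 did not pass; without AICAR replicate 2, these 4 and HNRNPH3, HNRNPM and SRSF3 did not. Each of the 18 called members kept its sign under all 12 alternative treatments of the data that were tried, whereas the sign of PTBP1, CELF1, HNRNPC, HNRNPU and PCBP2, which were not called, turned in at least 1. With all 4 arrays kept, HNRNPAB, HNRNPD, HNRNPM, HNRNPUL2, SRSF3 and SRSF8 did not pass with no filter on dim genes (adjusted p = 0.0539 to 0.101). An ID that ends in _x_at marks a probe set that may bind related sequences; HNRNPA1, HNRNPC, HNRNPD, HNRNPDL, HNRNPU, PTBP1, SRSF7 and SRSF8 were read on one.

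SYNCRIP, or hnRNP Q, binds RNA in the nucleus and cytoplasm and takes part in splicing, mRNA transport and translation. It had the largest difference of all members: its brightest probe set, 209025_s_at, was at 10.93 and 10.93 (log2) with AICAR and at 12.22 and 12.20 with vehicle. Both AICAR arrays lay more than 1 log2 unit below both vehicle arrays. The difference was -1.28 ± 0.0659 (SE), or 2.43-fold lower with AICAR (adjusted p = 0.00278). The mean of its 7 probe sets was less far down, at -0.50, and also passed (adjusted p = 0.00849). HNRNPR, its close relative, was at 12.73 and 12.84 with AICAR and 12.64 and 12.69 with vehicle. Its AICAR arrays were the higher ones, but the difference of 0.12 did not pass (adjusted p = 0.345).

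Among the PTBP genes, PTBP2 encodes the protein also called neural PTB, which in neurons takes over from PTBP1 during development. It was at 7.83 and 7.87 (log2) with AICAR and at 8.97 and 9.05 with vehicle. The groups stood far apart, at -1.16 ± 0.0702 (SE), 2.24-fold lower with AICAR (adjusted p = 0.0032), and its other probe set was also lower, at -0.82. PTBP1, the widely expressed family member, was at 11.85 and 11.81 with AICAR and 12.11 and 12.07 with vehicle, without overlap. Its difference of -0.26 (95% interval -0.42 to -0.10) did not pass (adjusted p = 0.0642), and its 4 probe sets ran from -0.26 to 0.25. That reading came from an _x_at probe set with a mean of 11.96 (log2). The other PTBP1 probe sets were far dimmer, with means of 6.48 to 6.68, near the bound of 6.11 for dim genes. Without _x_at probe sets the sign turned, to 0.07 (adjusted p = 0.681), on a probe set at 6.53. The mean of all 4, which gives the dimmer ones equal weight, was -0.01. PTBP3 had a difference of -0.20 (interval -0.38 to -0.03) and did not pass either (adjusted p = 0.139). The intervals of PTBP1 and PTBP3 lay wholly above that of PTBP2, which ran from -1.33 to -0.99; the difference between the genes was not tested.

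The related hnRNP L genes bind CA-rich RNA. HNRNPL had a difference of -0.10 and HNRNPLL, a splicing regulator of CD45 in T cells, had one of 0.27. HNRNPLL was at 11.15 and 11.19 (log2) with AICAR and 10.91 and 10.89 with vehicle, so that its AICAR arrays were the higher ones. It missed the threshold (adjusted p = 0.0561; 0.0372 after quantile normalization), and the mean of its 4 probe sets was 0.13 (adjusted p = 0.331).

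Both genes of the hnRNP H group that were measured fell, against 5.19% of all genes tested. The hnRNP H proteins bind G-rich runs near splice sites. HNRNPH1 was at 12.14 and 12.24 (log2) with AICAR and 12.87 and 13.00 with vehicle, 1.67-fold lower (adjusted p = 0.00776), and its 4 probe sets were all negative, from -1.34 to -0.63. HNRNPH3 was at 11.59 and 11.52 with AICAR and 11.98 and 11.99 with vehicle, 1.35-fold lower (adjusted p = 0.0181). Its 4 probe sets lay close together, from -0.47 to -0.39. HNRNPF, which binds the same kind of sequence, was at 11.78 and 11.81 with AICAR and 11.76 and 11.79 with vehicle. Its arrays overlapped between the groups, and the difference was 0.02 (interval -0.14 to 0.18).

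All 3 genes of the hnRNP D group fell, against 5.19% of all genes tested. HNRNPD encodes AUF1, which binds AU-rich elements and alters mRNA stability, and HNRNPDL and HNRNPAB encode its relatives. HNRNPDL was at 11.84 and 11.81 (log2) with AICAR and 12.26 and 12.26 with vehicle, 1.35-fold lower (adjusted p = 0.0171). HNRNPAB was at 13.15 and 13.08 with AICAR and 13.46 and 13.40 with vehicle, 1.25-fold lower (adjusted p = 0.041). HNRNPD was at 12.81 and 12.80 with AICAR and 13.14 and 13.07 with vehicle, 1.23-fold lower (adjusted p = 0.0465). In each gene both AICAR arrays were below both vehicle arrays, by a smaller step than in HNRNPH1. HNRNPAB and HNRNPD lay close to the threshold, and with the replicate number as a block neither passed (adjusted p = 0.0562 and 0.0715). HNRNPD also did not pass after quantile normalization (adjusted p = 0.0603), without _x_at probe sets (0.0699) or as the mean of its 9 probe sets (0.105). Of those 9, 6 lay above the bound for dim genes.

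In the hnRNP A group, whose proteins bind UAG-like motifs and often silence exons, 1 of 4 genes fell, against 5.19% of all genes tested. HNRNPA3 was at 10.22 and 10.33 (log2) with AICAR and 10.77 and 10.80 with vehicle, 1.42-fold lower (adjusted p = 0.0144). HNRNPA0 (-0.27, adjusted p = 0.065), HNRNPA1 (-0.15, 0.223) and HNRNPA2B1 (-0.14, 0.239) did not pass on their brightest probe sets, though the AICAR arrays lay below the vehicle arrays in all 3. With _x_at probe sets left out, the difference of HNRNPA1 was -0.80 and it passed (adjusted p = 0.0155). That reading came from a probe set with a mean of 8.50 (log2), against 12.14 for the brightest. The remaining HNRNPA1 probe set, with a mean of 8.21, was at -0.39. It did not pass in limma over all probe sets (adjusted p = 0.259).

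HNRNPM and HNRNPUL2 fell in the group of hnRNP M and U. HNRNPM, which binds GU-rich RNA, was at 12.83 and 12.77 (log2) with AICAR and 13.18 and 13.16 with vehicle, 1.29-fold lower (adjusted p = 0.025). HNRNPUL2, a nuclear relative of HNRNPU, was at 10.18 and 10.16 with AICAR and 10.53 and 10.47 with vehicle, 1.25-fold lower (adjusted p = 0.0342). Neither overlapped between the groups. Both calls were lost in the mean over probe sets, which was -0.15 for the 7 of HNRNPM (adjusted p = 0.188). Of those 7, 4 lay above the bound for dim genes, with differences of -0.51 to -0.03. For the 2 probe sets of HNRNPUL2 the mean was -0.19 (adjusted p = 0.104), and its other probe set was at -0.06. HNRNPUL2 did not pass with the replicate number as a block either (adjusted p = 0.0534). HNRNPUL1 had a difference of -0.29 (interval -0.49 to -0.10) and did not pass (adjusted p = 0.0736). HNRNPU, which binds RNA and the nuclear scaffold, was at 13.37 and 13.45 with AICAR and 13.46 and 13.43 with vehicle; these arrays overlapped.

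None of the hnRNP C genes or of the genes with KH RNA-binding domains passed. HNRNPC, which packages nascent RNA and binds U-rich stretches, was the flattest member, at 13.44 and 13.44 (log2) with AICAR and 13.43 and 13.45 with vehicle, an interval of -0.15 to 0.16. RALY, its relative, had a difference of 0.13. HNRNPK, a binder of C-rich RNA, had one of -0.21 (adjusted p = 0.11), and PCBP1, another such binder, one of -0.06. PCBP2 was at 12.24 and 12.30 with AICAR and 12.15 and 12.13 with vehicle, its AICAR arrays being the higher ones, and did not pass (0.13, adjusted p = 0.287). In sum, 10 of the 26 tested hnRNP, PTBP, PCBP and RALY genes (38.5%) fell and none rose, against 5.19% and 4.63% of all genes. Their median was -0.23. At an unadjusted p under 0.05 in the same test, 15 were lower and 1 was higher, as were 13.3% and 12.8% of all genes.

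The SR genes were all on the lower side. The difference was negative for all 9 tested SR genes and both TRA2 genes, with a median of -0.39 over the 11, and 7 of them (63.6%) fell. Of all genes tested, 47.6% had a negative difference and 5.19% fell. SRSF7, which also links spliced mRNA to export, was at 12.24 and 12.04 (log2) with AICAR and 12.92 and 12.88 with vehicle, 1.69-fold lower (adjusted p = 0.00874). Without _x_at probe sets SRSF7 was at -0.42, under the 1.5-fold size, and still passed (adjusted p = 0.0187), and the mean of its 4 probe sets was -0.44. SRSF1, the prototype SR protein, was at 12.39 and 12.33 with AICAR and 13.14 and 13.07 with vehicle, 1.67-fold lower (adjusted p = 0.00608). In both genes the groups were separated by several times the gap between replicate arrays. SRSF10, an SR-like protein that represses splicing when it loses its phosphates, was at 10.17 and 10.21 with AICAR and 10.64 and 10.72 with vehicle, 1.41-fold lower (adjusted p = 0.0144). All 5 of its probe sets were lower when each was tested separately.

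SRSF3, the smallest SR protein, was at 12.70 and 12.61 (log2) with AICAR and 13.01 and 13.09 with vehicle, 1.31-fold lower (adjusted p = 0.0268). SRSF8 was at 10.88 and 10.89 with AICAR and 11.20 and 11.14 with vehicle, 1.22-fold lower, at the edge of the threshold (adjusted p = 0.0496). The gene is a near copy of SRSF2 and was read on an _x_at probe set, so its share of that signal is uncertain; it did not pass without such probe sets (-0.22, adjusted p = 0.0962), after quantile normalization (0.0714) or with the replicate number as a block (0.0808). SRSF5 (-0.27, adjusted p = 0.0584), SRSF6 (-0.16, 0.181), SRSF4 (-0.14, 0.235) and SRSF11 (-0.13, 0.514) did not pass. Of these 4, SRSF11 alone overlapped between the groups, its replicate arrays lying farther apart than those of the others. SRSF12 was at 4.96 and 4.65 with AICAR and 4.75 and 4.80 with vehicle, below the bound of 6.11 for dim genes.

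Both TRA2 genes fell, against 5.19% of all genes tested. The TRA2 proteins are SR-like partners of the SR family that bind GAA-rich exonic enhancers. TRA2B was at 12.45 and 12.42 (log2) with AICAR and 12.95 and 13.00 with vehicle, 1.45-fold lower (adjusted p = 0.0104). TRA2A was at 10.97 and 11.04 with AICAR and 11.42 and 11.47 with vehicle, 1.36-fold lower (adjusted p = 0.0186). All 4 probe sets of TRA2B, at -0.71 to -0.34, and all 5 of TRA2A, at -0.60 to -0.12, were negative.

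MBNL2 was the single member that rose. Muscleblind proteins bind YGCY motifs and are known from myotonic dystrophy, where expanded repeats sequester them. MBNL2 was at 10.50 and 10.74 (log2) with AICAR and 10.06 and 10.01 with vehicle, 1.5-fold higher (adjusted p = 0.0187). The AICAR arrays differed from each other by more than the vehicle arrays did, and both lay above them. All 5 of its probe sets were positive, from 0.04 to 0.59, but 3 were below the bound for dim genes, and the mean over all 5 did not pass (0.22, adjusted p = 0.137). Nor did it pass without vehicle replicate 1 (adjusted p = 0.0945) or 2 (0.102). MBNL1 had a difference of 0.16 (interval -0.005 to 0.33) and MBNL3 one of -0.17, and neither passed.

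The remaining members were TARDBP, CELF1 and ELAVL1. TARDBP, or TDP-43, binds UG-rich RNA and represses cryptic exons. It was at 11.66 and 11.65 (log2) with AICAR and 11.99 and 11.89 with vehicle, without overlap, and its difference of -0.29 did not pass (adjusted p = 0.0564). CELF1, which binds GU-rich elements and opposes muscleblind proteins on some exons, had a difference of -0.19 (adjusted p = 0.134). ELAVL1, or HuR, which stabilises AU-rich mRNAs, had one of -0.12 (adjusted p = 0.332).

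**Figure D2:**
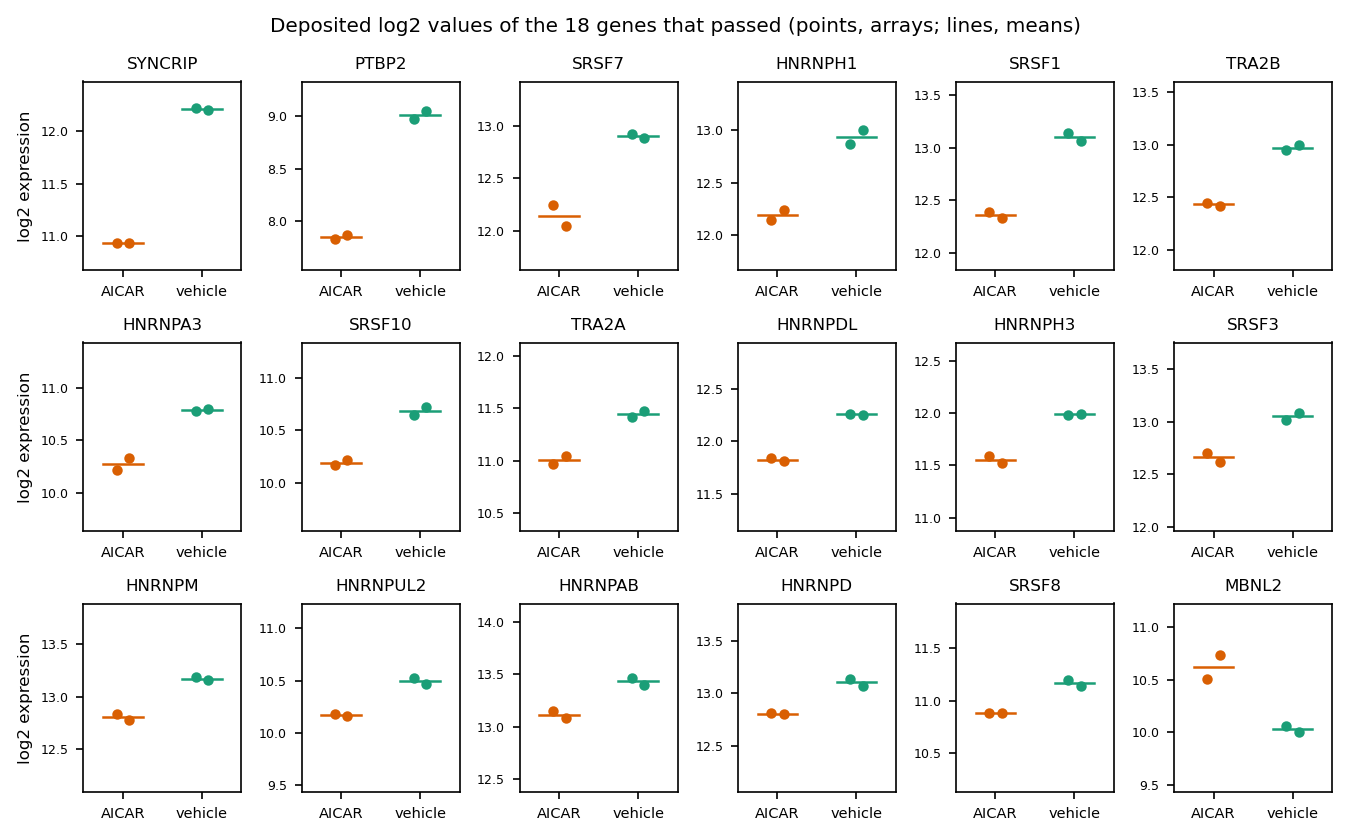
Deposited log2 expression (vertical axis) of the 18 members that passed, on the 2 AICAR arrays (orange, left in each panel) and the 2 vehicle arrays (green, right); points are arrays and lines are group means, and all panels span the same number of log2 units. The groups do not overlap in any panel, the step is widest in SYNCRIP and PTBP2, and only MBNL2 is higher with AICAR.

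Which probe set reads a gene mattered for several members. Over all 179 probe sets the difference was negative for 136 and positive for 43. With adjustment over all 41097 single-symbol probe sets, 35 (19.6%) were lower and 1 was higher, against 1.31% and 0.976% of all. The lower ones belonged to 19 genes, 4 of which had not passed on their brightest probe set: HNRNPA0, HNRNPA1, HNRNPA2B1 and SRSF4. All probe sets were negative in 12 of the 17 genes that fell, whereas SYNCRIP, HNRNPDL, HNRNPD, HNRNPM and SRSF3 had at least 1 with a positive difference. In HNRNPDL and HNRNPM every positive probe set lay below the bound for dim genes.

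A further 17 probe sets carried a member symbol together with other symbols, among them all those of HNRNPH2, SRSF2 and SRSF9, and no gene is named from them. The difference, AICAR minus vehicle, was negative for 15 and positive for 2, with a median of -0.21 and a range of -0.65 to 0.16 (log2), against a negative difference for 47.4% of all 54675 probe sets. With adjustment over all of these, 3 of the 17 were lower and none was higher, against 0.887% and 0.6% of all.

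**Figure D3:**
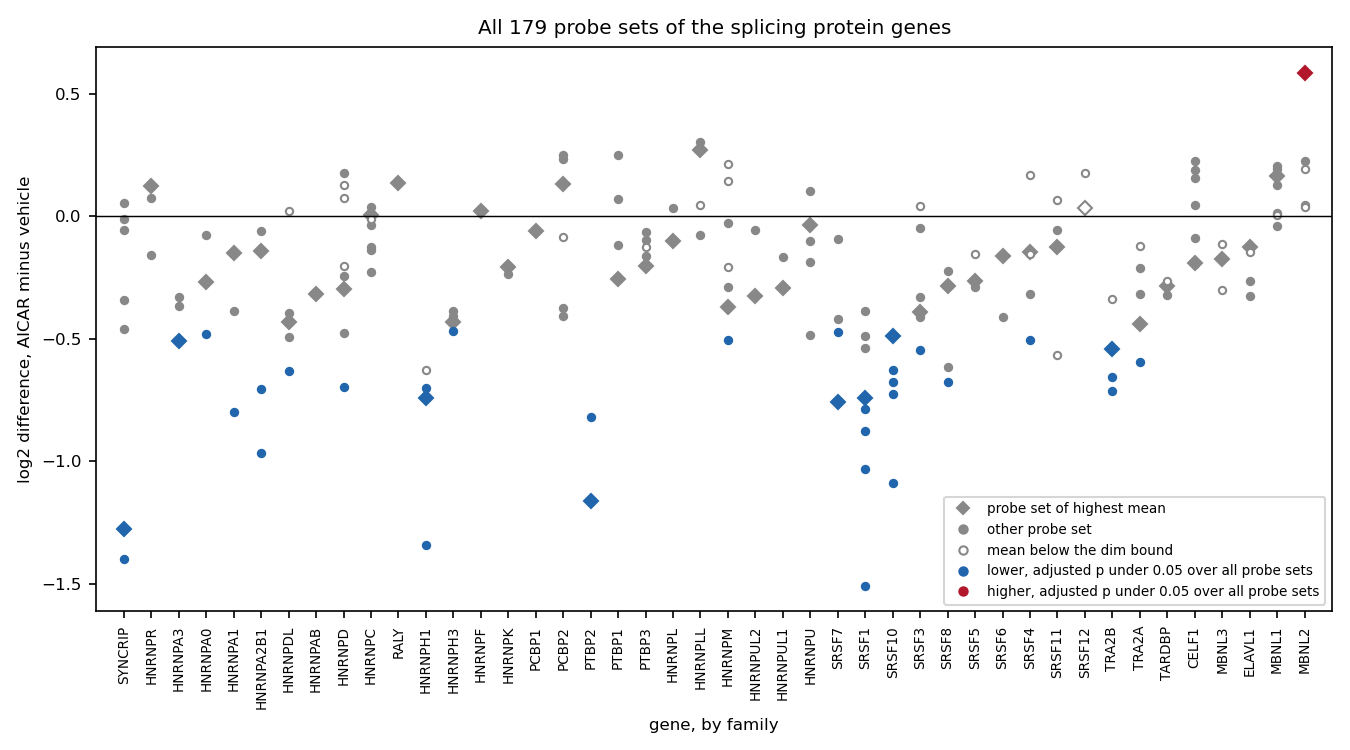
Log2 difference, AICAR minus vehicle (vertical axis), of each of the 179 member probe sets by gene (horizontal axis). Diamonds mark the brightest probe set of a gene, open symbols those below the bound for dim genes, and colour those that passed over all probe sets; SRSF10 has 5 blue symbols and SRSF1 also has 5, while the SYNCRIP symbols span -1.40 to 0.05.

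SYNCRIP had the widest disagreement. Probe set 1555427_s_at was at 9.34 and 9.24 (log2) with AICAR and 10.66 and 10.71 with vehicle, a difference of -1.40 close to that of 209025_s_at (adjusted p = 0.00889 for each over all probe sets). Intermediate values came from 209024_s_at (-0.46, adjusted p = 0.0634) and 217832_at (-0.34, 0.0872). By contrast, 217833_at was at 10.65 and 10.75 with AICAR and 10.62 and 10.68 with vehicle, and 217834_s_at was at 10.44 and 10.61 with AICAR and 10.58 and 10.58 with vehicle. Those 2 overlapped between the groups and had differences of 0.05 and -0.06. The F-test of limma's diffSplice, which asks whether the probe sets of a gene changed by different amounts, gave an adjusted p of 7.08e-08 for SYNCRIP. Where the probe sets lie on the SYNCRIP transcripts was not analysed here, so the values show unequal change within the gene and not which transcript changed.

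The same test passed for 6 of 38 members that could be tested (15.8%), against 4.75% of 6459 genes: SYNCRIP, HNRNPA2B1 (adjusted p = 0.00229), PCBP2 (0.0048), SRSF1 (0.0191), SRSF7 (0.0213) and HNRNPU (0.0497). It assumes one spread for all probe sets of a gene; in a fit with a spread for each probe set, chosen after the data were seen, SYNCRIP alone passed (adjusted p = 0.0208), against 1.19% of all genes. The other 5 had adjusted p-values of 0.0589 to 0.173 in this second fit. It also takes each probe set against the mean of the others and combines the p-values within a gene. Why these 5 calls were lost was not tested. The shares of members and of all genes were not matched for the number of probe sets per gene. That number ran from 2 to 8 among the members tested. Fewer members passed diffSplice's F-test when any single array was left out, SYNCRIP among them each time, in fits that have less power.

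In HNRNPA2B1, the brightest probe set was at 13.49 and 13.54 (log2) with AICAR and 13.65 and 13.68 with vehicle. Probe set 225107_at was at 9.58 and 9.78 with AICAR and 10.68 and 10.61 with vehicle, a difference of -0.97 (adjusted p = 0.0162). Probe set 225932_s_at was at 11.02 and 11.23 with AICAR and 11.83 and 11.83 with vehicle (adjusted p = 0.0262). Both were separated by far more than the brightest probe set was. In SRSF1 all 8 probe sets were negative, and the difference reached -1.51 in 227164_at, at 8.14 and 8.05 with AICAR and 9.62 and 9.60 with vehicle (adjusted p = 0.00889). In SRSF7 the 4 probe sets ran from -0.76 to -0.09. PCBP2 had 3 negative and 3 positive probe sets, from -0.41 to 0.25, and HNRNPU 4 negative and 1 positive, from -0.49 to 0.10; no probe set of either gene passed by itself.

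**Figure D4:**
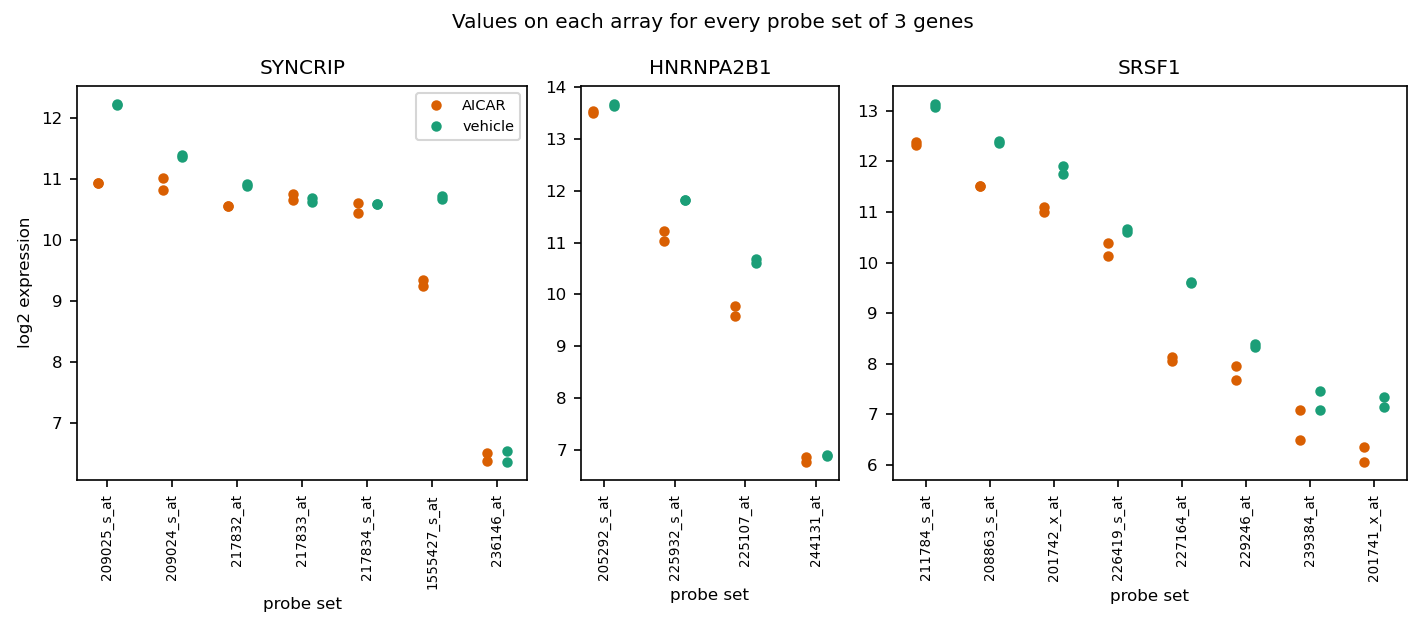
Log2 expression (vertical axis) on each AICAR array (orange, left) and vehicle array (green, right) for every probe set (horizontal axis) of SYNCRIP, HNRNPA2B1 and SRSF1. In SYNCRIP 2 probe sets show a wide gap and 3 overlap between the groups, in HNRNPA2B1 the 2 middle probe sets have the widest gaps, and in SRSF1 the AICAR points are lower throughout.

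Other genes of the splicing machinery were counted from 5 lists, in the same fit. Their medians lay nearer to 0 than that of the members. Of 49 core spliceosome genes, for the snRNP proteins and their partners, 37 had a negative difference and 12 a positive one. A negative difference was seen for 47.6% of all genes. Both AICAR arrays lay below both vehicle arrays for 32 of the 49 and above them for 2, against 28% and 28.5% of all genes. By the test, 4 of the 49 (8.16%) fell and none rose, near the 5.19% and 4.63% of all genes, at a median of -0.10. The 4 were SF1, the branch point binding protein (-0.58, adjusted p = 0.00874), SNRNP200, the helicase that unwinds U4 from U6 (-0.45, 0.0432), USP39 (-0.36, 0.0305) and SF3B3 of the U2 snRNP (-0.32, 0.0458). Among the kinases of SR proteins, 2 of 9 (22.2%) fell, at a median of -0.10: CLK3 (-0.46, adjusted p = 0.0237) and SRPK1 (-0.30, 0.0408). A second probe set of CLK3 was on the other side of 0, at 0.15.

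Of 20 SR-related and exon junction genes, 4 (20%) fell and none rose, against 5.19% and 4.63% of all genes, at a median of -0.18. The difference was negative for 18 of the 20 and positive for 2, against a negative difference for 47.6% of all genes. SRRM1, a coactivator that bridges SR proteins and the spliceosome, was the lowest (-0.73, adjusted p = 0.00662), followed by LUC7L2, a partner of the U1 snRNP (-0.50, 0.0127), SCAF8 (-0.42, 0.0199) and MAGOHB of the exon junction complex (-0.41, 0.0277). None of 6 tested nonsense-mediated decay genes passed, at a median of -0.01, with 1 lower and 1 higher at an unadjusted p under 0.05, as were 13.3% and 12.8% of all genes; the widest differences were those of SMG9 (-0.21, adjusted p = 0.153) and SMG8 (0.17, 0.191). Of 31 other splicing regulators, 3 (9.68%) fell and 1 (3.23%) rose, near the 5.19% and 4.63% of all genes, at a median of -0.07. The difference was negative for 22 of the 31 and positive for 9. MSI2, a musashi protein, was at -0.84 (adjusted p = 0.00608), ELAVL2 at -0.69 (0.0271) and DAZAP1 at -0.43 (0.0186). KHDRBS3, a STAR-family protein, was at 0.66 (adjusted p = 0.0101), with another probe set at -0.07. The difference between the members and these lists was not tested. Calls of single genes on these lists were not recomputed with an array left out.

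**Figure D5:**
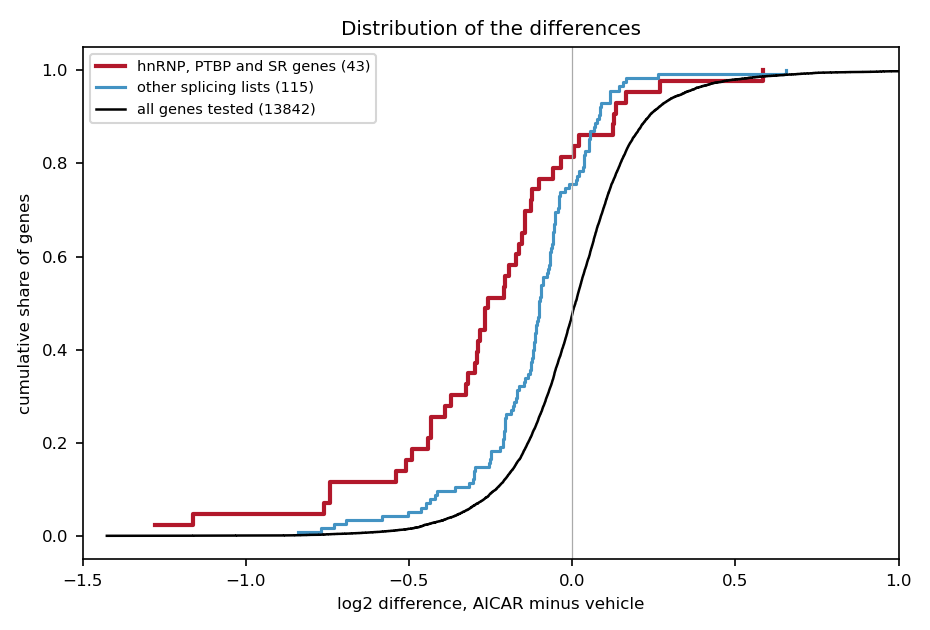
Cumulative share of genes (vertical axis, 0 to 1) against the log2 difference, AICAR minus vehicle (horizontal axis, drawn from -1.5 to 1), for the 43 members (red), 115 genes of the other splicing lists (blue) and 13842 genes tested (black). The red curve lies left of the others over most of its range, with medians of -0.26 for the members and 0.01 for all genes.

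The promoters of several hnRNP genes that fell hold the same short sequence, shown here as a description. Whether it bears on their change was not tested. The 250 bases before each annotated start were read from RefSeq (GRCh38.p14) for 43 of the 47 members, some with more than 1 start, and searched for 5 motifs on both strands, chosen after the values were seen. The palindrome CACGTG, the E-box that MYC and other basic helix-loop-helix factors can bind, stood in a window of 5 of the 16 fallen members with a window (31.2%) and of 2 of 27 other members (7.41%). The other members were all those with a window that were not called lower, whether they rose, did not pass or were not tested. CACGTG stood in a window of 11% of the 11065 tested genes that had one and of 7.73% of all 27305 symbols. The 5 fallen genes were all hnRNPs, and 1 window of each is printed on its coding strand, with CACGTG in capitals, followed by that of SYNCRIP, which holds none.
HNRNPA3, chr2:177212544-177212793, plus strand: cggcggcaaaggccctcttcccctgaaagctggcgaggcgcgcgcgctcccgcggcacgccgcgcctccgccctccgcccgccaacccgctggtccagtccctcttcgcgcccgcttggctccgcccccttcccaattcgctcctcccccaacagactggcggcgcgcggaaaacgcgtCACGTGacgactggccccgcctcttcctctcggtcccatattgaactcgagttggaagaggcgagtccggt
HNRNPD, chr4:82373992-82374241, minus strand: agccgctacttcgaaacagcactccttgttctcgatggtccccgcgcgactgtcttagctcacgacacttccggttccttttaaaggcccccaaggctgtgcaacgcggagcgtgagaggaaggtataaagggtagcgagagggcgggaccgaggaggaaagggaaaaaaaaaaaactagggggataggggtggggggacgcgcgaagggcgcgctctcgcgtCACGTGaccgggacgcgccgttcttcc
HNRNPDL, chr4:82430226-82430475, minus strand: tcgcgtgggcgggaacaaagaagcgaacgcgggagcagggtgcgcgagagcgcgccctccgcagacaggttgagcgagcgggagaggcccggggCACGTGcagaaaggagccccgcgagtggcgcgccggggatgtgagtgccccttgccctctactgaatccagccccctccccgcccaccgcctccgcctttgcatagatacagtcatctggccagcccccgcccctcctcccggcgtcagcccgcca
HNRNPH3, chr10:68331443-68331692, plus strand: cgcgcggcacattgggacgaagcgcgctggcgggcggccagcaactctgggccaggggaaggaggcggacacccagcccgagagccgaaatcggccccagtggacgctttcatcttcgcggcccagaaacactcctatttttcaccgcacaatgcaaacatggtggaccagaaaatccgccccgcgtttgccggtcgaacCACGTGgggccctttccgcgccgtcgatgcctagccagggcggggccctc
HNRNPM, chr19:8444725-8444974, plus strand: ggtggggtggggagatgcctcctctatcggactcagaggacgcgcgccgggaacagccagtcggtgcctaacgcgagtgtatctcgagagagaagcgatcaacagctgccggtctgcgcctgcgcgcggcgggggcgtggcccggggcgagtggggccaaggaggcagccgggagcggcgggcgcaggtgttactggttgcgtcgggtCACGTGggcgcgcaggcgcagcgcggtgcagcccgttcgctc
SYNCRIP, chr6:85643871-85644120, minus strand: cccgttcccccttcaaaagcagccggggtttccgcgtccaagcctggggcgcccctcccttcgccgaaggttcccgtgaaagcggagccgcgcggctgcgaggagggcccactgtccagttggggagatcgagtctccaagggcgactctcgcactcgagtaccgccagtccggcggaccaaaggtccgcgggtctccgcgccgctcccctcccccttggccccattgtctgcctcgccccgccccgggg

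Counted from its first base, the E-box stood 71 bases before the start of HNRNPA3, 27 before that of HNRNPD and 42 before that of HNRNPM. HNRNPH3 had 3 windows, and only 1 of them held the E-box, 50 bases before its start. HNRNPDL had 2 windows with an E-box, at 156 and 127 bases before their starts. The windows of PTBP2 and SRSF1 held none. Per window, the E-box stood in 25% of 24 windows of fallen members, 4.55% of 44 windows of other members, 8.1% of windows of tested genes and 6.34% of all 35116. The other motifs, in the same order, were AAGGTCA (8.33%, 0, 2.64% and 3.44%), CCAAT (33.3%, 40.9%, 32.4% and 32%), CCGGAAG (4.17%, 15.9%, 13% and 8.52%) and TATAAA (16.7%, 9.09%, 6.3% and 10.7%). None of the 5 motifs contains another. The median GC share of the windows was 63.2% for fallen members, 64.8% for other members and 64% for tested genes. A match says only that the letters stand in the window, and binding was not measured here.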

How the data were processed

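Total RNA was labelled with biotin and hybridised to the arrays, per the labels' protocols. The values are log2 expression per probe set, normalized by the authors before deposit with Affymetrix Expression Console, per the submitters' processing notes; the version, the summarization and the background step were not given in the sources used here, and small values may understate a change. Values ran from 2.95 to 15.3 and were used as deposited.

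The platform annotation paired 41097 probe sets with 1 gene symbol, 1801 with several and 11777 with none listed; 41043 symbols were updated through Entrez IDs with the RefSeq table of GRCh38.p14. Each gene was read on the probe set with the highest mean, and genes below the 30th percentile of gene means (6.11) were left out. AICAR was compared with vehicle in limma 3.58.1 under R 4.3.3, by lmFit and then untrended eBayes, two-sided, with Benjamini-Hochberg adjustment over all genes tested. The number of arrays limits the precision: the fit has 2 residual degrees of freedom, the median standard error was 0.0772, and an exact permutation test of 2 against 2 arrays cannot give a p below 0.333. Probe sets within a gene were compared with diffSplice over those at or above the bound. The fits were tested on simulated data. Motifs were counted with Python 3.11.15.

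Every member is named; per-array values are given for members that passed or whose probe sets disagreed. From each of the 5 other lists up to 4 called genes with the largest differences are named, or 2 where none was called. Members and lists were chosen with earlier results of these data known. Alternative settings were a dim filter at the 50th percentile or none, median centring, quantile normalization, a trend with robust variances, a mean over the probe sets of a gene, every probe set by itself, no probe sets ending in _x_at (those that may bind related sequences), a block for the replicate number, and 1 array left out at a time.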

Additional observations from a re-analysis of the deposited data

How the results depend on the processing

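Among the 18 called members, the sign held under all 12 alternatives tried per gene; SYNCRIP, PTBP2 and SRSF1 passed in every one, 11 passed in every one that kept the 4 arrays, and 12 members not called passed in at least 1. With no dim filter 723 genes were called in place of 1359, 11 members fell and the median of the members was -0.23. Trended robust variances gave 2466 genes and 29 members called, 27 of them lower. Tested separately, 36 member probe sets passed, 35 of them lower, at a median of -0.21. The median was -0.23 after quantile normalization, which split the called genes into 854 higher and 624 lower, against 641 and 718, and -0.22 for the mean of all probe sets and -0.22 without _x_at probe sets. Leaving out 1 array at a time gave 120 to 985 called genes, 3 to 14 called members, 3 to 13 fallen members and medians of -0.26 to -0.23; a lone array was taken to vary like the other group. Probe sets disagreed in 10 to 147 genes and 1 to 5 members then, in 58 genes and 3 members with the replicate block, and in 77 genes and 1 member in the fit with a spread per probe set, against 307 and 6. The arrays share only a replicate number (correlation of deviations -0.07); with it as a block, 14 members were called and 13 fell. Why these counts moved was not tested. Dim probe sets limit what can be seen of SRSF12 and of 31 of the 179 member probe sets. The last disagreement fit, the counts without SYNCRIP and PTBP2 and the lists for RNA 3′ ends and export were chosen after seeing the data.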

Other observations

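Genes that act on mRNA just after splicing were counted in the same fit, in lists chosen after the data were seen. Of 18 cleavage and polyadenylation genes, 4 (22.2%) fell and none rose, against 5.19% and 4.63% of all genes, at a median of -0.13. They were PCF11, which links cleavage to transcription termination (-0.46, adjusted p = 0.0178 in limma), PABPN1, the nuclear poly(A) binding protein (-0.34, 0.0402), RBBP6 (-0.33, 0.0329) and CPSF7 of the cleavage factor I complex (-0.29, 0.0447). Of 13 mRNA export genes, 1 (7.69%) fell, at a median of -0.12: THOC2, the scaffold of the THO complex (-0.43, adjusted p = 0.0334).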
